A study of Mus musculus with 18 samples.

Results

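The genes described here encode the splicing machinery and the RNA-binding proteins that steer it. They are the protein-coding genes of the mouse annotation whose symbols name SR proteins (Srsf), heterogeneous nuclear ribonucleoproteins (Hnrnp), Sm and other snRNP proteins (Snrp), SF3 subunits (Sf3a, Sf3b), U2AF subunits, or the Rbfox, Nova, Ptbp, Celf, Elavl and Mbnl regulators, and they were chosen by symbol and not by any measured value. The rule took 76 of the 47643 genes in the count files. RNA was sequenced from eDRG spot cultures, in which dorsal root ganglion cells of e13.5 CD-1 mouse embryos were grown as spots with nerve growth factor and the mitotic inhibitor FDU. The 3 control libraries came from uninjured cultures at DIV7, and 3 libraries came from cultures collected at each of 1, 3, 8, 16 and 24 hours post injury (HPI), the injury being a cut of the axons with a blade. All 18 libraries share strain, embryo age at dissection and FDU. The axons were cut at DIV7, and no uninjured culture of a later time is among the libraries. Injury and added time in culture therefore cannot be told apart. The sources do not say whether replicates were separate animals or dissections, so p-values measure the spread between these samples only.

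Splicing removes introns in a large particle, the spliceosome, in which snRNPs built around Sm proteins recognise the splice sites and U2AF and SF3 subunits mark the branch point region. SR proteins generally favour the use of nearby exons, and hnRNPs often oppose it. The Rbfox, Nova, Ptbp, Celf, Elavl and Mbnl proteins bind short RNA motifs and set tissue-specific exon choice, and in neurons several of them also act on mRNA stability, transport and translation. Gene counts sum over all transcripts of a gene, so they show the level of these factors and not what was spliced.

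Libraries held 9478891 to 23082327 counts on genes, and the members took 0.567% to 0.675% of them. Of the 76 members, 73 passed a filter of over 1 CPM, the count scaled to library size, in at least 3 libraries, which left 13771 genes for testing. The 3 that did not were Mbnl3, a muscleblind-like splicing regulator with 0 to 3 counts in a library, U2af1l4, a relative of the small U2AF subunit with 0 to 3 counts, and Snrpf, an Sm protein with 1 to 7 counts. Snrpf is part of every spliceosomal Sm ring, and 85.4% of its exonic bases lie within exons of other genes (Ccdc38 and 4933408J17Rik). For U2af1l4 the share was 66.1%. How such shared bases entered the counts was not tested. Sensory neuron markers (12 genes) summed to between 13372 and 17074 CPM in every library. Satellite glia and Schwann cell markers summed to at most 138 CPM with 1 of 12 at 3 counts or fewer in every library, fibroblast markers to at most 32.6 CPM, myeloid markers to at most 8.71 CPM and endothelial markers to at most 2.15 CPM with 1 of 6 at 3 counts or fewer. Residual rRNA fragments took 10112 to 19355 CPM in the other libraries and 54082.5 CPM in 16 HPI replicate 1.

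In uninjured cultures some of the regulators, from the Rbfox and Elavl families, stood among the highest members per unit of length. In RPKM, counts scaled by exon length and library size, Rbfox2, an exon-choice regulator, had 74.0 ± 2.02 (SD, n = 3), Rbfox1 had 55.1 ± 3.16, and both Elavl2 and Elavl4, neuronal Hu proteins, had 47.9, with SDs of 1.04 and 3.48. Snrpn, the SmN protein of neurons, had 68.8 ± 0.893 and stood among them, but 34.1% of its exonic bases are shared with other genes, Snurf among them. The difference between Elavl2 and Elavl4 was within their spread. Elavl1, the widely expressed Hu protein, had 5.09 RPKM in comparison, and Elavl3 had 39.1.

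The general families were led by Hnrnpk at 43.9 ± 3.22 RPKM, a poly-C binding hnRNP, by Srsf5 at 40.6 ± 1.17, and by Sf3b2 at 25.1 ± 0.368. Ptbp2, the neuronal polypyrimidine tract protein, had 20.1 RPKM, against 1.94 for Ptbp1, its counterpart in non-neuronal and dividing cells. Nova1 and Nova2, neuron-specific KH-domain splicing regulators, were at 0.233 and 0.497 RPKM, the lowest of the tested members. Compared with all 12398 protein-coding genes tested, the 73 tested members had a higher median level (12.2 against 4.98 RPKM) and a lower median GC content of exons (45.7% against 49.7%).

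**Figure D1:**
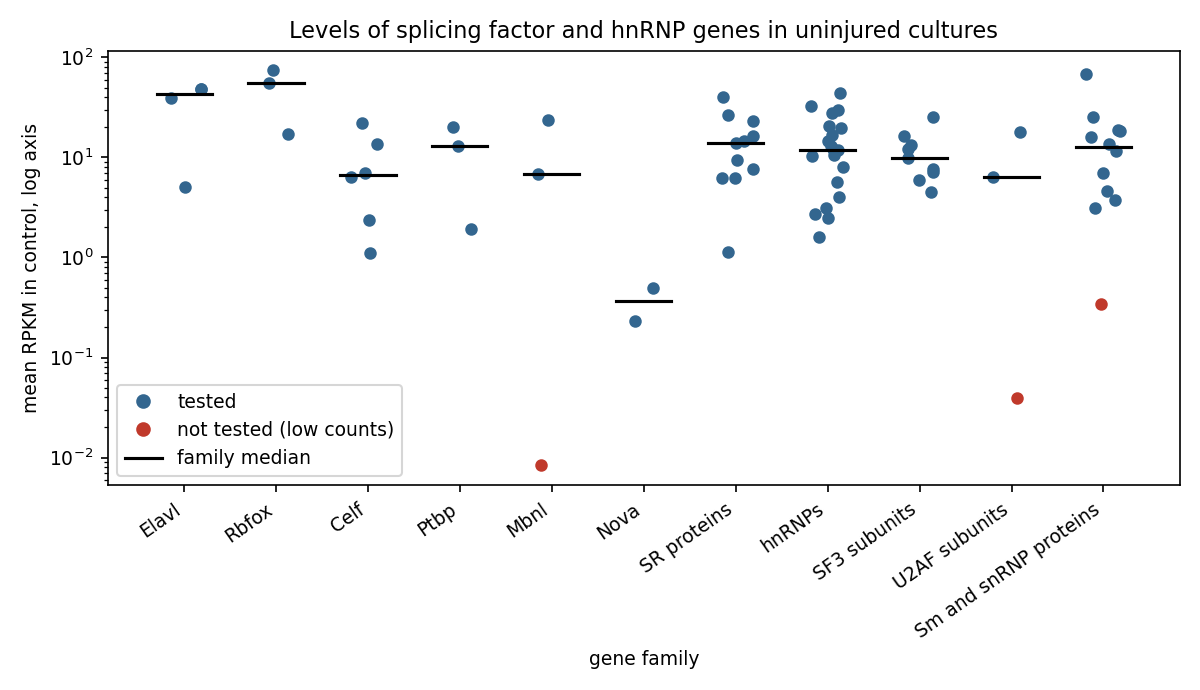
Mean RPKM (log axis) of the members in the 3 control libraries, 1 point per gene, by family, with the family median as a bar. The Rbfox and Elavl families have the highest medians (55.1 and 43.5 RPKM), and the 3 genes that were not tested lie under 1 RPKM with both Nova genes.

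Many members carry annotated transcripts that cells degrade or keep in the nucleus, a known layer of regulation in these families. Of the 73 tested members, 32 (43.8%) have an annotated nonsense-mediated decay transcript, against 28.8% of protein-coding genes tested, and 54 (74%) have a retained-intron transcript, against 58.7%. Among the SR proteins 9 of 11 carry a decay transcript, among the hnRNPs 10 of 20, and among the Ptbp genes 3 of 3. These shares come from the annotation and were given no test.

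After injury the levels of these genes moved little. No member changed more than 2-fold at any time point. A gene is called changed here at an adjusted p under 0.05 in edgeR's quasi-likelihood test, which compared each time point with control with the replicate number as a block and adjusted p over all 13771 genes. At 1 HPI no member was called, beside 0.0944% of all genes called higher and 0.182% called lower, with 8 members at an unadjusted p under 0.05. DESeq2 also called none there, beside 0.98% of all genes. At 3 HPI no member was called by edgeR, beside 0.0436% higher and 0.145% lower, with 14 members at an unadjusted p under 0.05. DESeq2 called 1 member at 3 HPI, Celf2, beside 1.11% of all genes.

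Calls appeared from 8 HPI. At 8 HPI 2 members were higher and 2 lower, beside 3.78% and 3.9% of all genes. At 16 HPI 2 were higher and 5 lower, beside 10.7% and 11.5%. At 24 HPI 4 were higher and 4 lower, beside 5.99% and 9.03%. The members called came to 5.48%, 9.59% and 11% of the 73 tested at the 3 time points, and in both directions each share was below that of all genes, a difference that was not tested. The members' median log2 fold changes in time order were 0.02, 0.04, 0.03, -0.01 and 0.01, and those of all genes lay within 0.01 of 0.

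Over the 5 time points together, an F test called 16 of 73 members (21.9%), beside 30% of all genes. Of the 15 members called against control at a single time or more, this F test called 12, and not Srsf1, Ptbp3 or Sf3b4. Without 16 HPI replicate 1 it called 10, beside 24.1% of all genes. These counts lean on the replicate block and on single libraries. Without the block the members called were 0 at 8 HPI, 3 at 16 HPI, 0 at 24 HPI and 2 over all time points. The shares of all genes called without it were 0.443%, 5.13%, 1.11% and 3.88%. At 8 HPI the 4 calls became 2 without control replicate 2 and 1 without control replicate 3 or 8 HPI replicate 3. In the same order these fits called 4.5%, 3.45% and 3.26% of all genes. At 24 HPI the 8 calls became 3 without control replicate 2, 24 HPI replicate 1 or 24 HPI replicate 2, 4 without control replicate 3 and 5 without 24 HPI replicate 3. All-gene shares in these fits were 9.01%, 10.1%, 11.1%, 10.6% and 10.7%, in this order. With upper-quartile scaling 3 members were higher and 4 lower at 16 HPI, and 7 higher (Snrpe, Srsf1 and Srsf7 among them) and 2 lower at 24 HPI. That scaling called 22.4% and 15.6% of all genes at these times. With a GC and length correction 3 were higher and 1 lower at 24 HPI, beside 13.2% of all genes called.

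**Figure D2:**
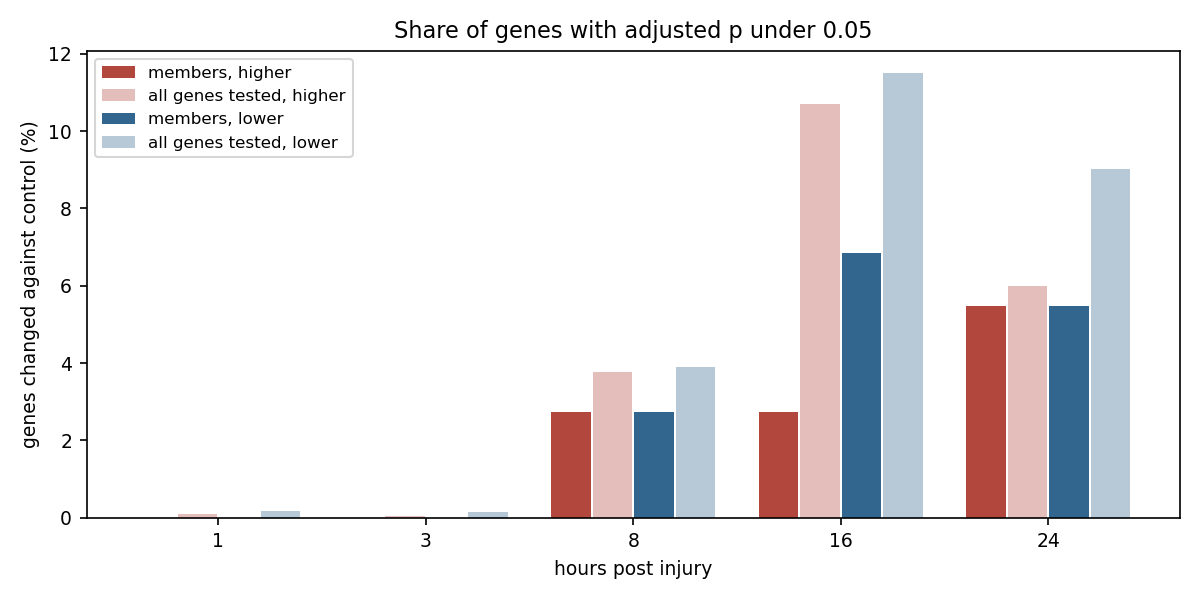
Percent of the 73 tested members (solid) and of all 13771 genes tested (pale) with an adjusted p under 0.05 against control, split by direction (higher or lower), at each time post injury. No member was called at 1 or 3 HPI, and from 8 HPI the members' shares were below those of all genes in both directions, by the widest margin at 16 HPI.

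Most of the calls were in the regulator families. Of 19 calls over the 5 comparisons, 15 were in the 20 tested genes of the Rbfox, Nova, Ptbp, Celf, Elavl and Mbnl families (11 different genes), and 4 were in the 53 genes of the general families. At 8, 16 and 24 HPI 15%, 30% and 30% of the 20 were called, beside 7.68%, 22.2% and 15% of all genes. Whether the families differ from each other or from all genes was not tested. Across the general families the estimates were tight, and the 95% interval of the log2 fold change lay within 0.5 of 0 for 53 of 53 genes at 1 and 3 HPI and for 52 of 53 at 8, 16 and 24 HPI. The exceptions were Srsf4 at 8 and 16 HPI and Hnrnph3 at 24 HPI, both low in level.

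**Figure D3:**
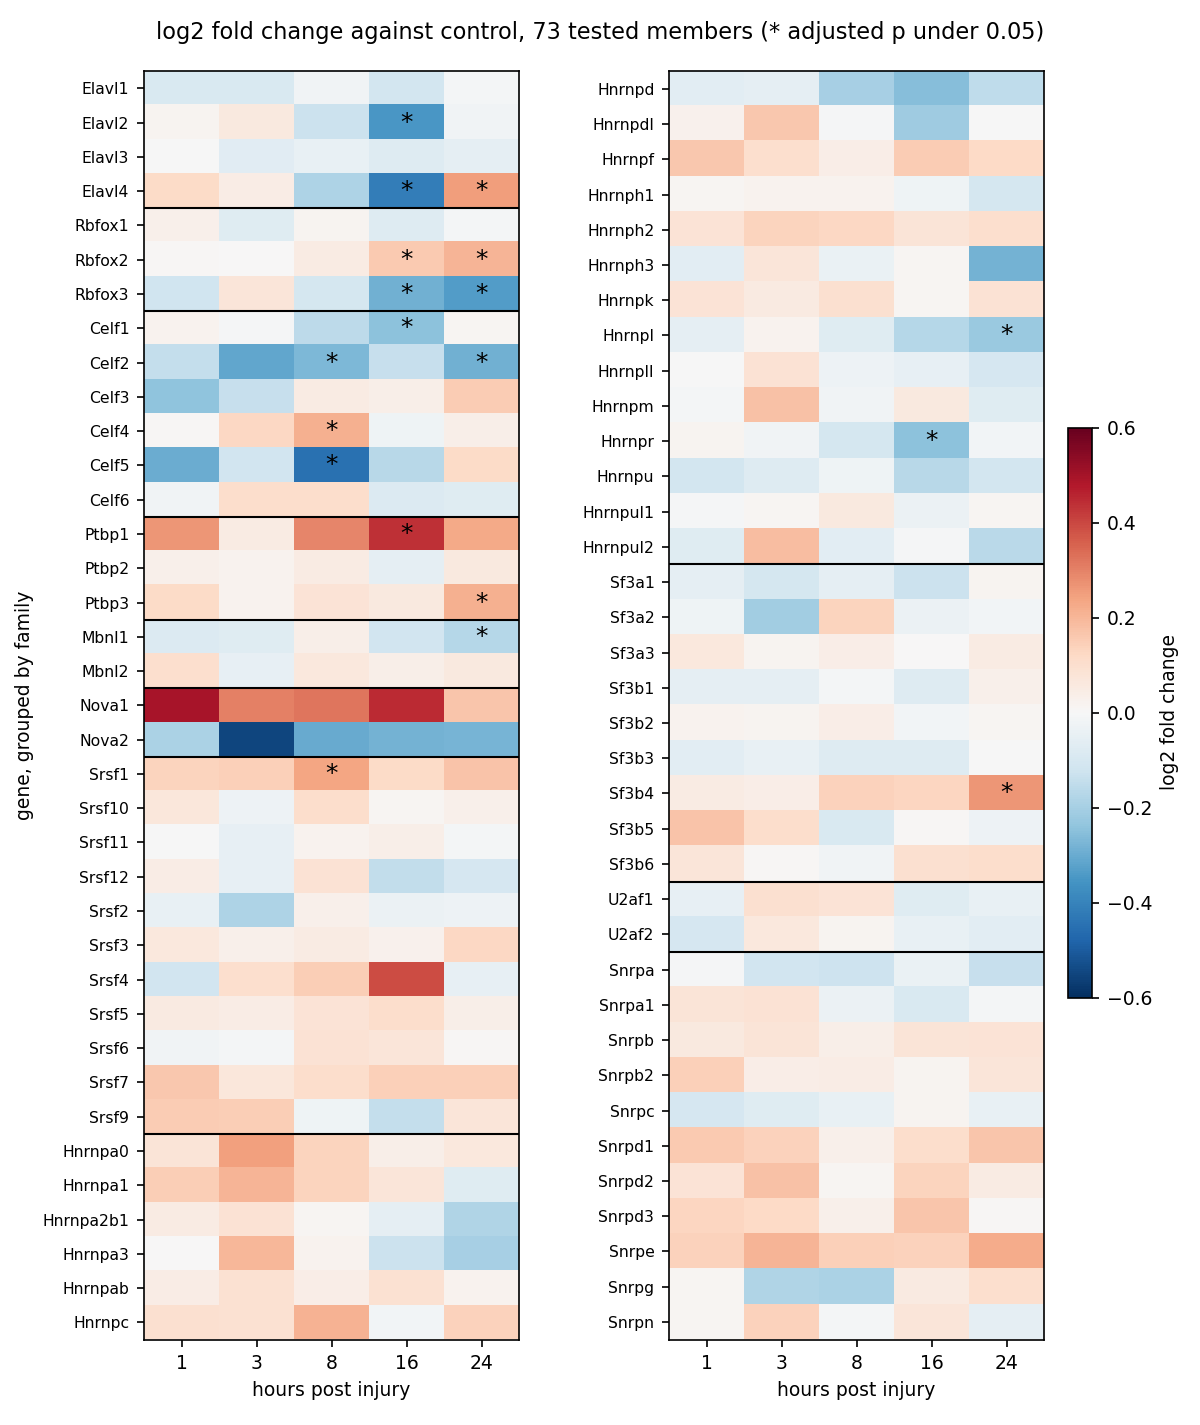
Log2 fold change against control (color, red higher and blue lower) for the 73 tested members, grouped by family and separated by black lines, at each time post injury, with an asterisk at adjusted p under 0.05. The 19 asterisks sit at 8, 16 and 24 HPI and lie mostly in the upper left families.

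The calls kept under all 15 alternatives were of the neuronal Hu genes Elavl4 and Elavl2, at 16 HPI and from 16 to 24 HPI. Their proteins bind AU-rich and U-rich RNA and promote neuronal mRNA stability and splicing choice. Both genes lie on the reverse strand of chromosome 4 (GRCm38), Elavl4 (ENSMUSG00000028546.17) at 110203722 to 110351909 and Elavl2 (ENSMUSG00000008489.18) at 91250763 to 91400785. RefSeq gives Elavl2 6 promoter windows and Elavl4 4, each from 250 bases before to 50 bases after a start. The windows of each gene with the most matches to the 4 motifs searched are shown here, since these genes moved together. Each window lies inside its gene, around a start that GENCODE also annotates, with 16.7% of its bases in annotated exons. Capitals mark the letters CCAAT on the strand shown or its complement.
Elavl2, chr4:91376447-91376746, reverse strand: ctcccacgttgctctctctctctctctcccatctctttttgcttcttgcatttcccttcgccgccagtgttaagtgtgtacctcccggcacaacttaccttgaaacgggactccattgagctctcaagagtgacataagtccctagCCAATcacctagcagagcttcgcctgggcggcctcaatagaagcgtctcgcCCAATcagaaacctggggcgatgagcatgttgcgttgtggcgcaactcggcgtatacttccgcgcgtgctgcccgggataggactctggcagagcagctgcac
Elavl4, chr4:110287478-110287777, reverse strand: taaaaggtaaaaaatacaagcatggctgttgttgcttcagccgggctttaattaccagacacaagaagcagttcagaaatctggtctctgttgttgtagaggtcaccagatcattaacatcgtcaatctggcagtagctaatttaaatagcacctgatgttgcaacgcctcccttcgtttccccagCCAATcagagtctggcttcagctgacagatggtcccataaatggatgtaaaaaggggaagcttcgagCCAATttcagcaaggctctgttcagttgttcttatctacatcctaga
Each window held 2 matches to these letters, the CCAAT box. Elavl1 and Elavl3, which had no call at any time, also had matches, 2 and 1 in their windows. A match was found in 34 of the 63 tested members with a window (54%) and in 41.1% of all 27025 genes with one. TGANTCA (AP-1) was found in 4 members (6.3%) against 9% of all genes, TGACGTCA (CRE) in 4 (6.3%) against 2%, and CACGTG (E-box) in 8 (12.7%) against 8.1%, on both strands and with no motif overlapping another in the shown windows. A gene was counted if any of its windows matched. The tested members had 106 windows, and all genes, whether or not they passed the filter, had 32851. By window the shares were 47.2% against 37.4% for the CCAAT box and 3.8% against 7.8% for AP-1. For CRE they were 5.7% against 1.8%, and for the E-box 8.5% against 7.2%. Gene counts do not show which start was used, and a match is no more than the presence of these letters.

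Elavl4 stood at 278, 255 and 241 CPM in the control replicates, at 261, 207 and 214 at 8 HPI, at 193, 186 and 201 at 16 HPI, and at 349, 277 and 298 at 24 HPI. Every 16 HPI library was below every other library of the series, and the 24 HPI libraries overlapped control at 1 value although each was above the control of its own replicate number. Against control the log2 fold change was -0.41 ± 0.063 (SE) at 16 HPI (adjusted p = 6.5e-05 by edgeR) and 0.25 ± 0.062 at 24 HPI (adjusted p = 0.00875 by edgeR).

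Elavl2 stood at 403, 404 and 389 CPM in control, at 398, 338 and 359 at 8 HPI, at 328, 305 and 308 at 16 HPI, and at 407, 390 and 381 at 24 HPI. Its 16 HPI libraries also lay below all others, and its 24 HPI libraries overlapped control. The log2 fold change against control was -0.35 ± 0.053 at 16 HPI (adjusted p = 7.1e-05 by edgeR) and -0.02 ± 0.053 at 24 HPI, with a 95% interval from -0.13 to 0.087. Both 16 HPI calls held under all 15 alternatives tried. The 24 HPI call of Elavl4 was lost without 24 HPI replicate 1 (adjusted p = 0.061) and without the block (adjusted p = 0.307), and was kept under the other 13 with adjusted p from 0.000788 to 0.0446.

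Neighbouring times were also compared directly. From 16 to 24 HPI Elavl4 rose by 0.66 ± 0.063 on the log2 scale (adjusted p = 1.7e-06 by edgeR) and Elavl2 by 0.32 ± 0.053 (adjusted p = 0.000452 by edgeR), with no overlap between the libraries of the 2 times. In that comparison 5 members were called, all higher, beside 3.59% of all genes higher and 6.22% lower. The other 3 were Celf5, Celf1 and Hnrnpr, at 0.28, 0.26 and 0.23, whose calls held under 6, 10 and 10 of 15 alternatives. Without the block 2 members were called, without 16 HPI replicate 1 or 24 HPI replicate 3 it was 2, and without 24 HPI replicate 1 or 2 it was 3. Beside these stood 0.806%, 4.48%, 4.89%, 6.36% and 9.41% of all genes, in this order. Elavl4 and Elavl2 were called in every one of these fits.

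From 8 to 16 HPI 1 member was called higher and 5 lower, beside 7.3% and 7.86% of all genes. The lower ones were Celf4 (-0.24), Srsf12, an SR-like splicing repressor (-0.23), Elavl4 (-0.23), Elavl2 (-0.22) and Mbnl1 (-0.15), and Celf5 was higher (0.28). The Mbnl1 and Celf5 calls held under 3 and 4 of 15 alternatives, and the other 4 under 11 to 13. Without the block none was called, without 8 HPI replicate 1 it was 3 and without 8 HPI replicate 3 it was 2. Beside these stood 1.5%, 10.1% and 9.87% of all genes, in this order. With upper-quartile scaling 2 were higher and 3 lower, and with DESeq2's size factors 0 were higher and 5 lower. With rRNA and mitochondrial genes left out 0 were higher and 4 lower. All-gene shares under these settings were 15.2% (upper-quartile), 15.3% (DESeq2's size factors) and 14.6% (genes left out). The Elavl4 call was also lost with upper-quartile scaling, without 8 HPI replicate 1 and without 16 HPI replicate 1, which brought it to -0.15.

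**Figure D4:**
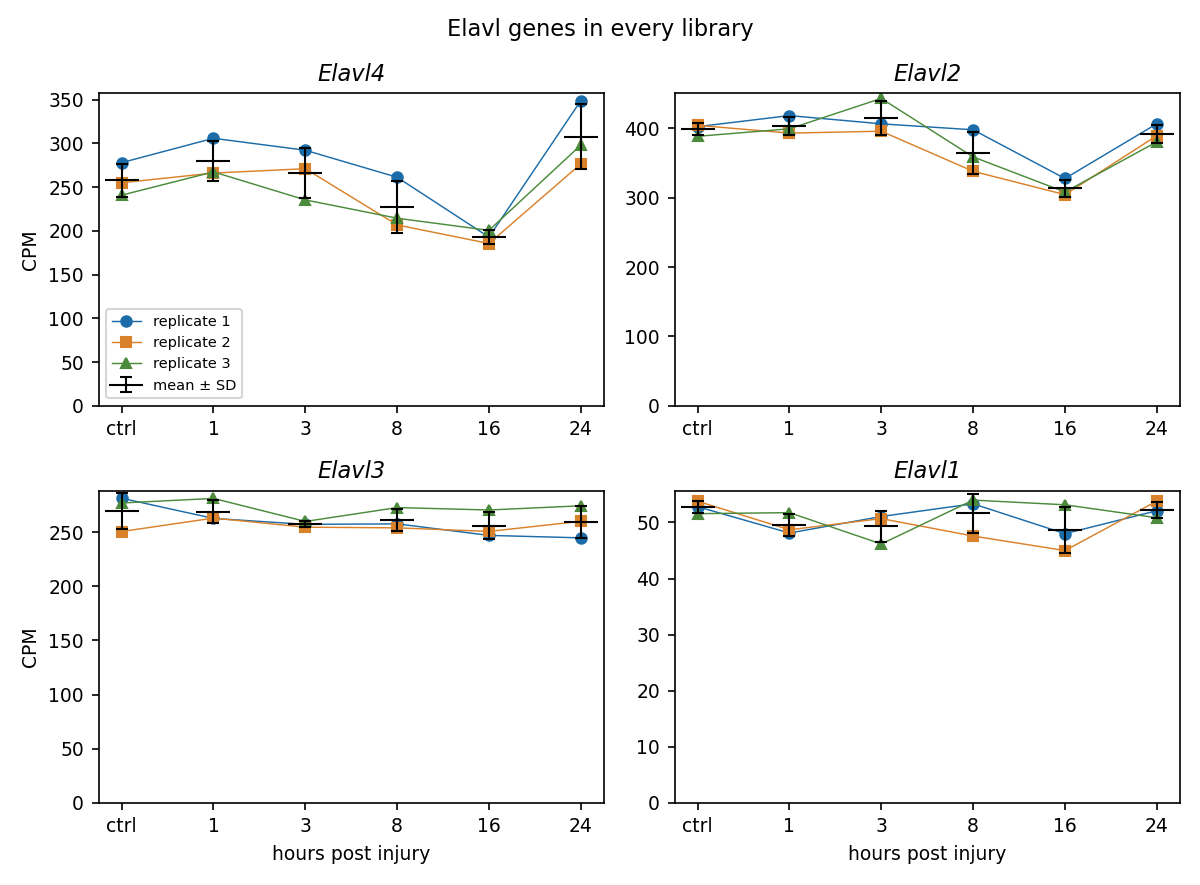
CPM of the 4 Elavl genes in every library (colored symbols, 1 line per replicate number) with the mean and SD of each group in black, in control and at each time post injury. Elavl4 and Elavl2 dip at 16 HPI to 186 to 201 and 305 to 328 CPM, while Elavl3 and Elavl1 have no call at any time.

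Elavl3, the other neuronal Hu gene, showed no such dip. It stood at 281, 250 and 277 CPM in control and at 247, 251 and 270 at 16 HPI, so that the groups overlapped, and its log2 fold changes lay between -0.08 and 0.00 at the 5 time points. Elavl1 lay between -0.11 and -0.01. Sensory neuron markers summed to 15009.5 to 16529 CPM in control, to 13372 to 15178 at 16 HPI and to 14063 to 15357 at 24 HPI, so the ranges overlapped control, while each library was below the control of its replicate number in 3 of 3 pairs at both times. Their part in the Elavl values was not tested, and in bulk RNA fewer neurons and less RNA per neuron cannot be told apart.

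Among the Rbfox genes, which recognise GCAUG motifs next to exons, Rbfox2 was higher and Rbfox3 lower late after injury. Rbfox2 stood at 586, 602 and 619 CPM in control, at 646, 695 and 675 at 16 HPI, and at 652, 758 and 675 at 24 HPI. The later groups did not overlap control. The log2 fold change was 0.16 ± 0.050 at 16 HPI (adjusted p = 0.0259 by edgeR) and 0.21 ± 0.050 at 24 HPI (adjusted p = 0.00746 by edgeR).

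Rbfox3, which encodes the neuronal marker NeuN, stood at 97.7, 84.4 and 119 CPM in control, at 70.9, 86.2 and 85.9 at 16 HPI, and at 67.4, 66.8 and 106 at 24 HPI. Its groups overlapped at both times, and at 16 HPI replicate 2 was above its own control. The log2 fold change was -0.29 ± 0.098 at 16 HPI (adjusted p = 0.0383 by edgeR) and -0.34 ± 0.097 at 24 HPI (adjusted p = 0.0226 by edgeR). The Rbfox3 calls held under 7 and 8 of 15 alternatives and were lost without the block, by DESeq2, at 16 HPI with upper-quartile scaling, and with any one of the control replicates left out, at 16 HPI also without 16 HPI replicate 1 or 3 and at 24 HPI without 24 HPI replicate 1 or 2. Leaving out 16 HPI replicate 3 brought its log2 fold change at that time to -0.17, and leaving out replicate 2 brought it to -0.47. Those of Rbfox2 held under 9 and 12, and were lost without the block, at 16 HPI with the compared groups alone, without control replicate 1 or 2 or 16 HPI replicate 2 or 3, and at 24 HPI without control or 24 HPI replicate 2. Rbfox1 had no call and lay between -0.08 and 0.03.

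The Celf genes, which bind GU-rich RNA and act in splicing and mRNA decay, had the most members called over all time points together, 5 of 6 beside 30% of all genes, in different directions and at different times. Celf5 stood at 16.2, 13.2 and 18.1 CPM in control, at 10.8, 10.7 and 13.5 at 8 HPI, and at 16.4, 14.8 and 20.3 at 24 HPI. The 8 HPI libraries were each below the control of their number, with 1 overlap between groups. Its log2 fold change at 8 HPI was -0.45 ± 0.092 (adjusted p = 0.00477 by edgeR), lost only without the block.

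Celf1 was lower at 16 HPI. It stood at 59.7, 54.1 and 62.4 CPM in control, at 49.6, 46.0 and 53.1 at 16 HPI, and at 54.2, 58.7 and 64.2 at 24 HPI. The 16 HPI libraries lay below control without overlap. The log2 fold change was -0.25 ± 0.067 (adjusted p = 0.0101 by edgeR), lost without control replicate 3 and without the block.

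Celf4, a neuronal member, and Celf2 were called at 8 HPI in opposite directions. Celf4 went from 140, 120 and 86.7 CPM in control to 156, 128 and 114 at 8 HPI, a log2 fold change of 0.21 ± 0.058 (adjusted p = 0.0257 by edgeR). Celf2 went from 30.1, 26.9 and 29.0 CPM to 28.1, 22.4 and 21.2 at 8 HPI, and to 27.4, 20.8 and 22.6 at 24 HPI, with log2 fold changes of -0.27 ± 0.079 (adjusted p = 0.0398 by edgeR) and -0.29 ± 0.077 (adjusted p = 0.0135 by edgeR).

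All these groups overlapped control. The Celf4 call was lost without control replicate 1 or 3 or 8 HPI replicate 1 or 3, with the compared groups alone and without the block. The Celf2 call at 8 HPI held under 6 of 15 alternatives and was lost without the block, without control replicate 2 or 3 or 8 HPI replicate 2 or 3, by DESeq2, with a filter of 10 counts over all libraries, with the compared groups alone and with the GC and length correction, which brought its log2 fold change to -0.14. At 24 HPI the Celf2 call was lost without the block, without control replicate 3 or 24 HPI replicate 2, and with the GC and length correction, which brought it to -0.083. Celf3 was called over all time points together (adjusted p = 0.0061 by edgeR) with no single time called, its lowest log2 fold change being -0.24 at 1 HPI and its highest 0.15 at 24 HPI. Celf6 had no call.

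Among the polypyrimidine tract proteins, Ptbp1 represses many neuronal exons outside neurons. It stood at 8.20, 7.98 and 11.3 CPM in control and at 11.0, 10.8 and 15.7 at 16 HPI. Each 16 HPI library was above the control of its number, with overlap between the groups. The log2 fold change was 0.44 ± 0.11 (adjusted p = 0.00753 by edgeR), lost only without the block. Cell division genes (10) summed to 37.4 to 42.1 CPM at 16 HPI against 31.9 to 34.4 in control, and glial markers to 59.6 to 101 CPM against 75.3 to 132. Of the exonic bases of Ptbp1 20.7% lie in exons of Plppr3 and other genes on the opposite strand. The part of these in the Ptbp1 value was not tested.

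Ptbp2 stood at 198, 177 and 178 CPM in control and at 193, 171 and 168 at 16 HPI, and had no call, its log2 fold changes lying between -0.05 and 0.06. Ptbp3 was higher at 24 HPI, at 118, 110 and 107 CPM against 98.2, 101 and 89.7 in control, without overlap. Its log2 fold change was 0.21 ± 0.060 (adjusted p = 0.0206 by edgeR), lost without the block and without control replicate 1 or 3 or 24 HPI replicate 1 or 3.

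Of the muscleblind genes, regulators of developmental exon choice, Mbnl1 was lower at 24 HPI, at 129, 103 and 112 CPM against 141, 124 and 121. The groups overlapped, and the log2 fold change was -0.17 ± 0.049 (adjusted p = 0.0191 by edgeR), held under 7 of 15 alternatives. It was lost without the block, without control replicate 1 or 2 or 24 HPI replicate 2 or 3, with upper-quartile scaling, with a filter of 10 counts over all libraries, and with the GC and length correction, which brought it to -0.036. Mbnl2 lay between 257 and 328 CPM in every library and had no call.

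Nova1 and Nova2 had no call at 1.17 to 3.97 and 2.18 to 5.12 CPM in a library. Their largest log2 fold changes, 0.49 ± 0.20 for Nova1 at 1 HPI and -0.55 ± 0.15 for Nova2 at 3 HPI, were the largest against control of all tested members and had adjusted p of 0.32 and 0.11 by edgeR.

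**Figure D5:**
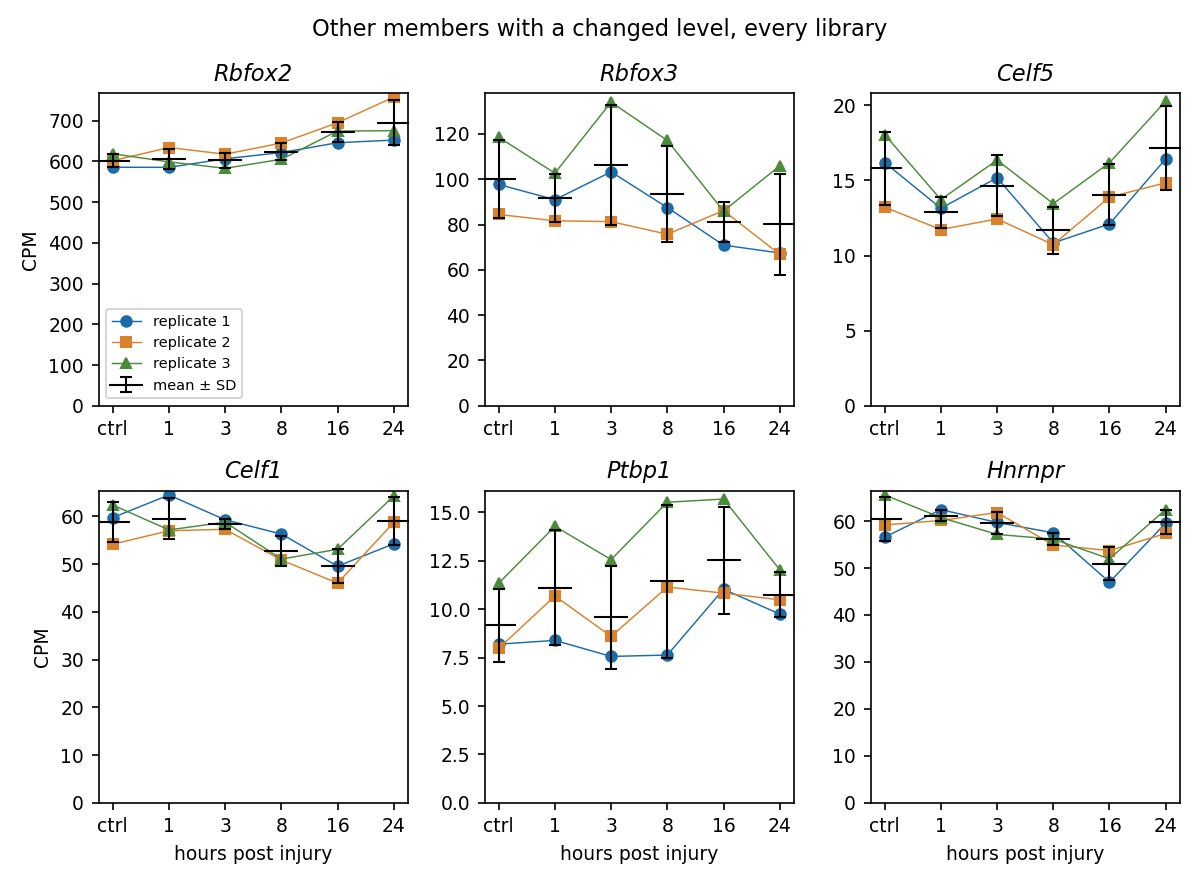
CPM of 6 members with a called change in every library (colored symbols, 1 line per replicate number) with the mean and SD of each group in black, in control and at each time post injury. Rbfox2 rises to 646 to 758 CPM at 16 and 24 HPI, and Celf1 and Hnrnpr are lowest at 16 HPI.

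Of the 11 SR proteins, Srsf1, an exon-enhancing splicing factor, was called at 8 HPI, at 193, 174 and 168 CPM against 168, 150 and 136 in control. The highest control library was just above the lowest 8 HPI library. The log2 fold change was 0.24 ± 0.060 (adjusted p = 0.0177 by edgeR), lost without the block and without control replicate 2 or 3 or 8 HPI replicate 1 or 3. At 8 HPI 10 of the 11 lay above 0, beside 6843 of 13771 genes, with a median of 0.09. The 1 call at that time was 9.09% of the family, beside 7.68% of all genes. At 24 HPI 7 of 11 lay above 0 with none called, beside 15% of all genes, 2 being at an unadjusted p under 0.05. Srsf5 lay between 0.03 and 0.10 and Srsf6 between -0.02 and 0.09 at the 5 time points.

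Of the 20 hnRNPs, 2 were called, both lower. At 16 HPI 1 was called (5%, beside 22.2% of all genes), and at 24 HPI 1 (5%, beside 15%). Hnrnpr, which also binds mRNA in axons, stood at 56.6, 59.2 and 65.6 CPM in control, at 47.0, 53.7 and 52.0 at 16 HPI, and at 59.6, 57.4 and 62.5 at 24 HPI. The 16 HPI libraries lay below control without overlap, and the log2 fold change was -0.25 ± 0.061 (adjusted p = 0.00556 by edgeR), lost without control replicate 3 and with a GC and length correction, which brought it to -0.10.

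Hnrnpl, a CA-repeat binding splicing regulator, went from 88.8, 87.5 and 86.0 CPM in control to 72.1, 74.8 and 77.7 at 24 HPI, also without overlap. Its log2 fold change was -0.22 ± 0.069 (adjusted p = 0.0317 by edgeR), held under 6 of 15 alternatives and lost without control replicate 1 or 2 or any one of the 24 HPI replicates, without the block, with upper-quartile scaling, with a filter of 10 counts over all libraries and with the GC and length correction. The abundant Hnrnpk lay between 0.01 and 0.10, Hnrnpab between 0.02 and 0.09, and Hnrnpa1, an antagonist of SR proteins, between -0.07 and 0.20, none called. Hnrnpdl and Hnrnpa3 were called over all time points together only, and are named after their values were seen.

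The core particle showed small changes. Of the 11 tested Sm and snRNP proteins none was called at any time by edgeR, with log2 fold changes between -0.19 (Snrpg, 8 HPI) and 0.22 (Snrpe, 24 HPI), and with 1, 3, 0, 0 and 2 of them at an unadjusted p under 0.05 at 1, 3, 8, 16 and 24 HPI. Snrpe was close to the threshold at 24 HPI (adjusted p = 0.0501 by edgeR), and passed it there under 5 of the alternatives (upper-quartile scaling, over 1 CPM in all 18 libraries, removal of rRNA and mitochondrial genes, fits to only the compared groups, and without control replicate 1). Snrpn lay between -0.05 and 0.14, and Snrpb, part of the Sm ring, between 0.04 and 0.08. The 2 tested U2AF subunits lay between -0.10 and 0.09 with no call. Of the 9 SF3 subunits 1 was called, at 24 HPI (11.1%, beside 15% of all genes). It was Sf3b4, at 19.6, 19.3 and 16.9 CPM against 15.3, 16.0 and 15.1 in control. The groups did not overlap, and the log2 fold change was 0.26 ± 0.084 (adjusted p = 0.0375 by edgeR), held under 7 of 15 alternatives and lost without any one of the control replicates, without 24 HPI replicate 1 or 2, without the block, by DESeq2 and with the GC and length correction. Sf3b1, which holds the branch point, lay between -0.08 and 0.03.

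Other pathway genes, in lists, were counted beside the share of all genes called, which was 0.276%, 0.189%, 7.68%, 22.2% and 15% at 1, 3, 8, 16 and 24 HPI. Their calls were not followed under the alternative fits. Of 58 further spliceosome proteins 1, 1, 4, 8 and 6 were called at 1, 3, 8, 16 and 24 HPI, of which 0, 0, 2, 4 and 4 were higher. The last 3 counts are 6.9%, 13.8% and 10.3% of the list, each below the share of all genes. Prpf8, the protein at the catalytic centre, was lower at all 5 times, by -0.30, -0.27, -0.26, -0.36 and -0.38 on the log2 scale, with adjusted p of 0.0214, 0.0442, 0.0058, 5.37e-05 and 7.5e-05 by edgeR. Slu7, a factor of the late catalytic step, was higher at 8 and 16 HPI, by 0.26 and 0.33.

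Of 23 tested SR-related proteins and SR protein kinases 0, 0, 4, 7 and 1 were called, with 5 at an unadjusted p under 0.05 at both 1 and 3 HPI, and 0, 0, 2, 4 and 0 were higher. At 8, 16 and 24 HPI these came to 17.4%, 30.4% and 4.35% of the list, above the share of all genes at 8 and 16 HPI and below it at 24 HPI. The exon-enhancing factors Tra2a and Tra2b were higher at 8 HPI, by 0.29 and 0.24, and at 16 HPI, by 0.26 and 0.24. The spliceosome-associated Srrm2 was lower at 8, 16 and 24 HPI, by -0.30, -0.26 and -0.40. Srrm4, which promotes neuronal microexons, was higher at 16 HPI by 0.35 and then fell by 0.59 to 24 HPI. Its relative Srrm3 went the other way, lower at 8 and 16 HPI by -0.40 and -0.28 (adjusted p = 0.00191 and 0.00741 by edgeR).

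Of 33 further hnRNP-like and RNA-binding proteins 0, 1, 2, 9 and 4 were called, with 3 at an unadjusted p under 0.05 at 1 HPI, and 0, 0, 0, 3 and 3 were higher. At 8, 16 and 24 HPI these came to 6.06%, 27.3% and 12.1% of the list, near the share of all genes. Qk, the STAR-family protein quaking, was higher at 16 HPI by 0.63 and Msi1, a progenitor RNA-binding protein, by 0.45. Khdrbs3 and Khdrbs2, neuronal STAR proteins, were lower at 16 HPI, by -0.30 and -0.33. Of 13 exon junction complex and decay proteins 0, 0, 2, 2 and 3 were called (15.4%, 15.4% and 23.1% at the later times), with 3 and 2 at an unadjusted p under 0.05 at 1 and 3 HPI. Of those called 0, 0, 0, 1 and 1 were higher. Smg1, a decay kinase, was lower at 8, 16 and 24 HPI, while Magoh was higher at 16 and 24 HPI, by 0.28 and 0.26.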

How the data were processed

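RNA of 18 libraries (3 control and 3 at each of 5 times post injury) was depleted of rRNA and made into cDNA with the SMARTer kit, per the labels. The authors aligned trimmed reads with STAR to mm10 and counted them on genes, and the deposited values are raw counts per gene, without normalization. The study's methods name featureCounts, while the tools in the submitters' notes and the closing entries of the tables are those of HTSeq. Whether the counting used strand is not given in the sources used here, so reads of overlapping genes on opposite strands cannot be told apart. Reads not counted on any gene came to 25.24% to 33.19% of the counts in a library. Reads not aligned uniquely, which are a part of these, came to 14.71% to 19.85%. All these entries were left out.

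Of 47643 identifiers 47224 matched GENCODE vM21 (GRCm38), which gave symbols, positions, exon lengths and transcript types, and 76 matched the rule. A further 5 pseudogenes fit the symbol pattern and were left out. Promoter windows came from RefSeq (GRCm38.p6), which held 63 of the 73 tested members.

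The filter kept genes that passed 1 CPM in 3 or more libraries, and tests used edgeR 4.0.16 in R 4.3.3. TMM factors and 1 quasi-likelihood model over all 18 libraries were used, with terms for group and replicate number, and p-values (two-sided) were adjusted by Benjamini-Hochberg over 13771 genes. CPM are over TMM-scaled library sizes. Tests were checked on simulated counts. Replicate numbers paired the samples, and the study corrected for batch. The correlation of deviations from the group means was 0.492 to 0.778 for the 45 pairs with the same number. For the 90 others it was -0.609 to -0.019. Deviations within a group cancel out, so the negative range follows from the positive one and is no separate sign of pairing. The alternatives were no replicate block, other size factors (DESeq2's and upper-quartile), DESeq2 1.42.0, other count filters, a GC and length correction, removal of rRNA and mitochondrial genes, fits to only the groups compared, and leave-one-library-out fits.

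The members, lists, tests and rule for named genes were chosen with earlier results of these data known. Named were the members called and moving the same way in all 3 replicate numbers, all members of the Rbfox, Nova, Ptbp, Celf, Elavl and Mbnl families, the 3 with the highest RPKM of each larger family, the 8 with the smallest p over all times, and up to 3 pathway genes in each direction and time. Hnrnpdl, Hnrnpa3, Srsf12, Hnrnph3, Srsf4, Srsf7 and Snrpg were named after their values were seen.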

Additional observations from a re-analysis of the deposited data

Results flagged for a closer look

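The members listed here differed between 2 neighbouring times in a direct test by edgeR with the replicate block. Between 8 and 16 HPI the log2 difference was -0.24 for Celf4, -0.23 for Srsf12, -0.23 for Elavl4, -0.22 for Elavl2, -0.15 for Mbnl1 and 0.28 for Celf5. Between 16 and 24 HPI it was 0.23 for Hnrnpr, 0.26 for Celf1, 0.28 for Celf5, 0.32 for Elavl2 and 0.66 for Elavl4. Each moved the same way in 3 of 3 replicate numbers. The 16 against 8 HPI differences of Mbnl1 and Celf5 passed under 3 and 4 of 15 alternatives, and the 24 against 16 HPI difference of Celf5 under 6.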

How the results depend on the processing

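Of the recomputed log2 fold changes of the members' named calls, 311 stayed past the threshold and 139 kept their direction without passing it, and none reversed. Calls of the other pathway genes were not followed under the alternatives. The log2 fold changes of Elavl4 and Elavl2 at 16 HPI, and from 16 to 24 HPI, passed under all 15 alternatives. Without the replicate block, which the pairing of the samples called for, the members called were 0 at 8 HPI, 3 at 16 HPI, 0 at 24 HPI, 0 from 8 to 16 HPI, 2 from 16 to 24 HPI and 2 over all time points. The shares of all genes were 0.443%, 5.13%, 1.11%, 1.5%, 0.806% and 3.88%, in the same order. With the compared groups alone the members called were 1 at 1 HPI (Celf3), 2 at 8 HPI and 13 at 24 HPI, beside 3.88%, 4.13% and 19.1% of all genes. DESeq2 called 1 at 3 HPI (1.11% of all genes), and the GC and length correction left 4 at 24 HPI (13.2% of all genes). Leaving out 1 library at a time gave 0 to 0 calls at 1 and 3 HPI, 1 to 3 at 8 HPI, 5 to 8 at 16 HPI, 3 to 6 at 24 HPI, 2 to 7 from 8 to 16 HPI, 2 to 5 from 16 to 24 HPI and 10 to 19 over all time points. In these fits all genes were called at 3.26% to 5.88% at 8 HPI, 16.4% to 19.8% at 16 HPI and 9.01% to 11.3% at 24 HPI. The shares were 9.86% to 12.6% from 8 to 16 HPI, 4.48% to 9.41% from 16 to 24 HPI and 24.1% to 29.7% over all time points. Why these counts moved was not tested. Other scalings moved the median of all genes by 0.0413 or less on the log2 scale. Standard errors were widest for the low genes Nova1, Nova2, Srsf4 and Hnrnph3.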
